A study of Mus musculus with 12 samples.

Results

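The FoxO transcription factors Foxo1, Foxo3 and Foxo4 and 6 genes known as FoxO targets that insulin lowers (Depp1, Irs2, Klf15, Sesn1, Cited2 and Ccng2) were followed in 3T3-L1 fat cells with raised or lowered Foxp1. These 9 genes were taken by symbol from the 28948 genes listed. All 9 were found, and all 9 were among the 11245 genes with enough signal to test.

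FoxO proteins are forkhead factors that switch on genes of fasting, stress resistance and growth arrest. Insulin acts through its receptor, the Irs adaptors, phosphoinositide 3-kinase and the kinase Akt, which phosphorylates FoxO proteins and sends them out of the nucleus, so that their target genes fall. In fat cells Foxo1 is known as a brake on early differentiation and as an insulin-controlled regulator of lipid and glucose genes. Foxp1 is another forkhead factor that can bind DNA sites like those of FoxO and often represses. RNA levels, which were measured here, do not report where FoxO proteins are in the cell or how active they are.

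The 3T3-L1 line consists of fibroblast-like cells, derived from Swiss mouse embryos, that can be turned into fat cells in culture. The 12 RNA libraries fell into 4 groups of 3, which were cells with constituent overexpression of FOXP1 (spelled as in the labels), cells with the empty vector, cells with a short hairpin RNA (shRNA) against Foxp1, and cells with a scrambled shRNA. All 4 groups had received the same differentiation mix of 10 µM troglitazone, 5 µg/ml insulin, 1 µM dexamethasone and 0.5 mM isobutylmethylxanthine. Insulin at 5 µg/ml was the only agent left from day 4, and plain growth medium was used after day 6 began. All were thus exposed to insulin during differentiation, and no group compares insulin with its absence. The promoter and species of the construct, the day of harvest, the time since feeding and the meaning of a replicate (separate dishes, separate transductions or repeat libraries) are not given in the sources used here, so p-values measure the spread between these libraries, which may be technical.

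Each library had 35252019 to 38450002 gene-assigned reads, and 135 to 7362 of those fell on each of the 9 genes in each library. Levels are in RPKM, a read count divided by exon length and library size. Foxp1 followed the labels, at 5.78, 7.16 and 6.75 RPKM in the overexpressing libraries against 1.83, 1.76 and 1.82 with the empty vector, and at 1.11, 1.14 and 1.08 with the Foxp1 hairpin against 2.24, 2.2 and 2.11 with the scrambled hairpin. Of 10 fat cell markers, 9 reached 1 RPKM (the hormone gene Lep stayed at or under 0.454). Their summed level was 3633.0 to 3914.6 RPKM with overexpression and 9242.8 to 9452.6 with the empty vector, and 9344.2 to 10031.5 with knockdown and 6725.1 to 6979.4 with the scrambled hairpin. Cidec alone averaged 3960.8 RPKM with knockdown and 2294.4 with the scrambled hairpin. Of 9 tested markers, 9 fell with overexpression, while 5 rose and 3 (Pparg, Cebpa and Retn) fell with knockdown. The call of Pparg was lost under some alternatives, such as voom on recovered reads (limma adjusted p = 0.215). Of all genes tested, 20.3% fell with overexpression, while 18.7% rose and 31.0% fell with knockdown. The 8 preadipocyte and fibroblast markers summed to 143 to 146 RPKM with overexpression and 122 to 135 with the empty vector. The sums were 130 to 148 RPKM with knockdown and 148 to 167 with the scrambled hairpin. Of 7 tested, 5 rose with overexpression (Dlk1, Pdgfrb, Thy1, Sox9 and Ccn5), where 31.0% of all genes rose. The other 2, Ly6a (log2 fold change -1.05) and Pdgfra (-0.30), fell. With knockdown 1 rose (Pdgfrb) and 2 fell (Thy1 and Ly6a). Skeletal muscle markers summed to 44.3 to 50.3 RPKM with overexpression and 24.2 to 25.0 with the empty vector. The sums were 9.38 to 10.3 RPKM with knockdown and 10.2 to 11.8 with the scrambled hairpin. Only Acta1 and Des reached 1 RPKM, and the muscle-defining Myog and Ckm were at or under 0.0363. Acta1 averaged 39.7 RPKM with overexpression and 13.0 with the empty vector, while Des averaged 8.41 and 11.6. With knockdown Acta1 averaged 1.69 RPKM against 1.05 with the scrambled hairpin, and Des 8.25 against 9.83. Acta1 thus rose and Des fell in both comparisons. Macrophage markers summed to 5.97 RPKM at most, with the defining Adgre1 and Ptprc at or under 0.00839. Reads from the mitochondrial genome made up 9.65% to 13.11% with overexpression and 8.61% to 9.35% with the empty vector. They made up 5.97% to 6.82% with knockdown and 4.8% to 5.69% with the scrambled hairpin. Overexpression replicate 3 stood apart, with 13.11% beside 9.99% and 9.65% in replicates 1 and 2. The part of fat cell state in the results on the 9 genes was not tested. That of overexpression replicate 3 was tested only by leaving this library out. In such bulk samples, fewer cells of a type and less RNA per cell cannot be told apart.

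Promoter sequences are shown for the 4 genes with a window that held a FoxO-type motif, because FoxO proteins act on their targets by binding such elements. RefSeq promoters (mouse GRCm38.p6, 250 bases before to 50 after the start) were matched for 8 of the 9 genes, with 9 windows. Foxo4 was not matched. The 3 motifs were searched on both strands, after the sequences had been seen: GTAAACA, the core that forkhead factors share; GTAAATA, a variant of it; and CAAAACA, the core of the insulin response sequence. Matches of different motifs can overlap in a longer stretch. Of 32851 mouse promoters in the same windows, 3.65% held the first, 3.04% the second and 6.28% the third, and 12.3% held at least 1 of the 3. The stretch around each match is printed 5′ to 3′ on the gene's strand, with the motif in capitals, as it stands or as its reverse complement.
Depp1, chr6:116650473-116650539, plus strand: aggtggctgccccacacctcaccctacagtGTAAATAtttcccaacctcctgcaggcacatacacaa
Irs2, chr8:11008930-11008996, minus strand: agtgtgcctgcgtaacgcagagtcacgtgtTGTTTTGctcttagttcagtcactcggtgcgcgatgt
Sesn1, chr10:41810566-41810623, plus strand: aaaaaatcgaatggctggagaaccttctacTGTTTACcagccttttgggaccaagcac
Ccng2, chr5:93267527-93267593, plus strand: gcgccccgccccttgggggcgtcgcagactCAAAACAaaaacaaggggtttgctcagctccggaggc

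The motif of Ccng2 began 16 bases before the start and that of Irs2 began 37 bases before it. In Depp1 the motif began 181 bases before the start, and in Sesn1 it began at base 23, counting the start as base 1. Another Sesn1 window, at chr10:41887189-41887488, held none of the 3 motifs. Distances are from the RefSeq start, which for Ccng2, Depp1 and Sesn1 lies inside the GENCODE gene span given with the values, and for Irs2 outside it. These are matches of letters, not shown binding sites, and no match in another window says only that these letters are absent there. The 4 genes did not share a response to Foxp1: with overexpression Ccng2 rose and Depp1, Irs2 and Sesn1 fell.

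Foxo1 rose with Foxp1 overexpression to 2.06 times its control level and fell with Foxp1 knockdown, and Foxo3 moved in the same directions by less. Foxo4 fell with knockdown, and its change with overexpression did not pass the test. Foxo1 (ENSMUSG00000044167, chromosome 3, 52268336 to 52353221, plus strand, GRCm38) is the main FoxO factor of the insulin response in liver and fat. Its level was 21.3, 22.3 and 23.1 RPKM in the overexpressing libraries, against 11.0, 10.7 and 10.7 with the empty vector. With knockdown it was 10.8, 11.5 and 10.5 RPKM, against 18.3, 18.1 and 17.9 with the scrambled hairpin. In both comparisons the libraries of the 2 groups lay far apart, with very little spread inside each. The means were 22.2 ± 0.883 RPKM with overexpression and 10.8 ± 0.155 with the empty vector (SD, n = 3 each), a ratio of 2.06 (log2 fold change 0.98, SE 0.04, limma adjusted p = 1.16e-09). In the hairpin groups they were 11.0 ± 0.524 RPKM with knockdown and 18.1 ± 0.195 with the scrambled hairpin, a ratio of 0.606 (log2 fold change -0.68, limma adjusted p = 1.67e-07). Fold changes and tests are on the log2(RPKM + 1) scale, which understates the change of low genes, and p-values are adjusted over all 11245 genes.

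Foxo3 (ENSMUSG00000048756, chromosome 10, 42181841 to 42276755, minus strand) encodes the FoxO factor best known from stress resistance and cell survival. It had 13.5, 14.6 and 13.8 RPKM with overexpression, against 10.5, 10.6 and 11.0 with the empty vector. With knockdown it had 7.99, 8.67 and 7.62 RPKM, against 9.92, 10.5 and 9.63 with the scrambled hairpin. The groups did not overlap in either comparison. The ratio of means was 1.31 with overexpression (log2 fold change 0.36, limma adjusted p = 7.11e-05) and 0.807 with knockdown (-0.28, limma adjusted p = 0.000616).

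Foxo4 (ENSMUSG00000042903, chromosome X, 101254528 to 101260873, plus strand) encodes the X-linked FoxO factor. Its 13.1, 13.8 and 11.5 RPKM with overexpression overlapped the 12.4, 14.1 and 13.9 RPKM with the empty vector, with the lowest value in overexpression replicate 3. The log2 fold change was -0.07, with an SE of 0.073 (limma adjusted p = 0.447), and it lay between -0.13 and 0 over the alternatives run. With knockdown, 9.53, 11.0 and 10.3 RPKM stood below all of the 15.2, 14.9 and 13.5 RPKM with the scrambled hairpin, a ratio of 0.706 (log2 fold change -0.46, limma adjusted p = 0.000251).

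Foxo6, the remaining FoxO gene and not among the 9, was low, rose with overexpression and fell with knockdown. It had 2.76, 3.05 and 3.31 RPKM with overexpression against 1.93, 2.12 and 1.76 with the empty vector (log2 fold change 0.46, limma adjusted p = 9.69e-05). It had 1.18, 1.11 and 1.27 RPKM with knockdown against 4.52, 4.48 and 3.89 with the scrambled hairpin (-1.27, limma adjusted p = 6.89e-08). The knockdown difference was the 8th lowest log2 fold change of all genes tested.

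Because RPKM is scaled by length, the 4 FoxO genes can be summed. The sum was 52.1 ± 1.62 RPKM with overexpression and 36.9 ± 1.0 with the empty vector, and 30.5 ± 1.55 with knockdown and 46.9 ± 1.77 with the scrambled hairpin (SD, n = 3 each). Foxo1 made up 42.7% ± 1.67 of that sum with overexpression and 29.2% ± 1.21 with the empty vector, and 35.9% ± 0.614 with knockdown and 38.5% ± 1.15 with the scrambled hairpin. With the empty vector Foxo4 held the largest share, 36.5%, while in each of the other 3 groups Foxo1 did.

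**Figure D1:**
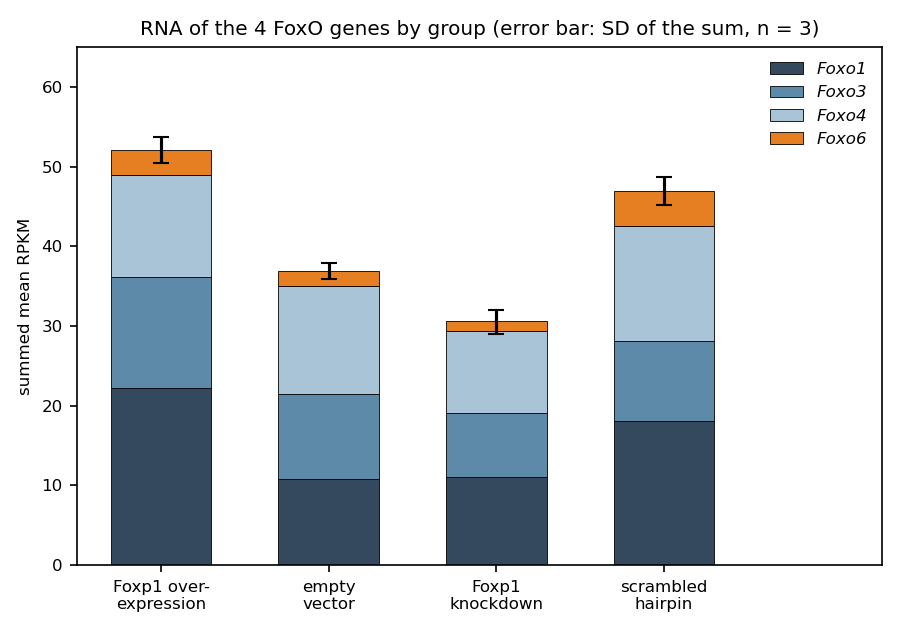
Levels of Foxo1, Foxo3, Foxo4 and Foxo6 as RPKM stacked by group, with the SD of the sum as the error bar (n = 3). The FoxO sum is highest with overexpression (52.1 RPKM) and lowest with knockdown (30.5 RPKM), and Foxo1 is the largest layer in 3 of the 4 groups.

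Among the FoxO targets, Depp1 showed the widest range. Depp1 (ENSMUSG00000048489, chromosome 6, 116650609 to 116652794, plus strand) is a direct FoxO target linked to autophagy and to control of reactive oxygen, and insulin lowers it in fat. It had 2.69, 3.11 and 2.76 RPKM with overexpression, against 6.06, 5.21 and 5.66 with the empty vector. With knockdown it had 5.28, 6.69 and 5.23 RPKM, against 20.6, 23.2 and 23.1 with the scrambled hairpin. Every overexpressing library was below every empty vector library, and every knockdown library far below every scrambled one, so that Depp1 fell in both comparisons. The ratio of means was 0.506 with overexpression (log2 fold change -0.79, SE 0.082, limma adjusted p = 5.95e-06) and 0.257 with knockdown (-1.80, SE 0.082, limma adjusted p = 3.28e-08). The knockdown value was the lowest log2 fold change of all 11245 genes. The level with knockdown, 5.73 ± 0.828 RPKM, overlapped that with the empty vector, 5.64 ± 0.424 (SD, n = 3 each), and the scrambled group alone was high.

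Irs2 (ENSMUSG00000038894, chromosome 8, 10984681 to 11008458, minus strand) encodes an adaptor that carries the signal of the insulin receptor to phosphoinositide 3-kinase, and FoxO raises it when insulin is low. It had 11.3, 13.4 and 12.7 RPKM with overexpression, against 16.0, 16.0 and 16.2 with the empty vector. In the knockdown libraries it had 25.8, 26.6 and 26.7 RPKM, against 25.4, 25.3 and 23.7 with the scrambled hairpin. Irs2 fell with overexpression, to a ratio of 0.776 (log2 fold change -0.34, limma adjusted p = 0.000137). In knockdown the ranges lay side by side without overlap, but the log2 fold change of 0.09 (SE 0.052) did not pass (limma adjusted p = 0.185); it passed only with voom on recovered reads (limma adjusted p = 0.0372).

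Klf15 (ENSMUSG00000030087, chromosome 6, 90462576 to 90475238, plus strand) is a zinc finger factor of amino acid breakdown and fasting metabolism that insulin lowers in liver. It had 20.7, 22.0 and 19.5 RPKM with overexpression, against 23.9, 28.2 and 27.4 with the empty vector. With knockdown it had 13.7, 15.5 and 14.5 RPKM, against 22.8, 23.5 and 22.1 with the scrambled hairpin. Klf15 fell in both comparisons with no overlap, to a ratio of 0.781 with overexpression (log2 fold change -0.34, limma adjusted p = 0.000811) and 0.641 with knockdown (-0.61, limma adjusted p = 1.26e-05).

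Sesn1 (ENSMUSG00000038332, chromosome 10, 41809935 to 41908424, plus strand) encodes a sestrin, a stress-induced inhibitor of the growth kinase complex mTORC1. It had 11.3, 11.5 and 10.2 RPKM with overexpression, against 13.0, 12.8 and 12.4 with the empty vector. Knockdown libraries had 9.06, 9.3 and 9.43 RPKM, against 9.73, 9.56 and 9.24 with the scrambled hairpin. Sesn1 fell with overexpression, to a ratio of 0.864 (log2 fold change -0.20, limma adjusted p = 0.00253), while the knockdown groups overlapped (log2 fold change -0.03, SE 0.044, limma adjusted p = 0.544). Sesn1 lies 273.0 kb from Foxo3 on chromosome 10, with 1 protein-coding gene between them.

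Cited2 (ENSMUSG00000039910, chromosome 10, 17723218 to 17725674, plus strand), the most abundant of the 9 in every group, encodes a co-regulator that binds the acetyltransferases CBP and p300 and restrains the hypoxia factor HIF-1. It had 35.8, 37.5 and 37.3 RPKM with overexpression, against 59.1, 60.3 and 63.9 with the empty vector. The knockdown libraries had 37.1, 36.9 and 35.4 RPKM, against 43.2, 41.2 and 42.9 with the scrambled hairpin. It fell in both comparisons, without overlap, to a ratio of 0.604 with overexpression (log2 fold change -0.71, limma adjusted p = 1.37e-08) and 0.859 with knockdown (-0.21, limma adjusted p = 0.000668).

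Ccng2 (ENSMUSG00000029385, chromosome 5, 93267257 to 93276231, plus strand) encodes cyclin G2, an unusual cyclin that goes with cell cycle arrest and is a direct FoxO target. It had 14.9, 15.3 and 15.2 RPKM with overexpression, against 13.2, 13.7 and 13.9 with the empty vector. With knockdown it had 17.0, 17.1 and 15.7 RPKM, against 20.2, 19.2 and 19.7 with the scrambled hairpin. Of the 6 targets, Ccng2 was the one that rose with overexpression, to a ratio of 1.11 (log2 fold change 0.14, limma adjusted p = 0.00852), and it fell with knockdown, to 0.844 (-0.23, limma adjusted p = 0.000386). The rise was no longer called with TPM (limma adjusted p = 0.116), median-ratio scaling (0.0581), quantile normalization (0.0509) or voom (0.059).

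**Figure D2:**
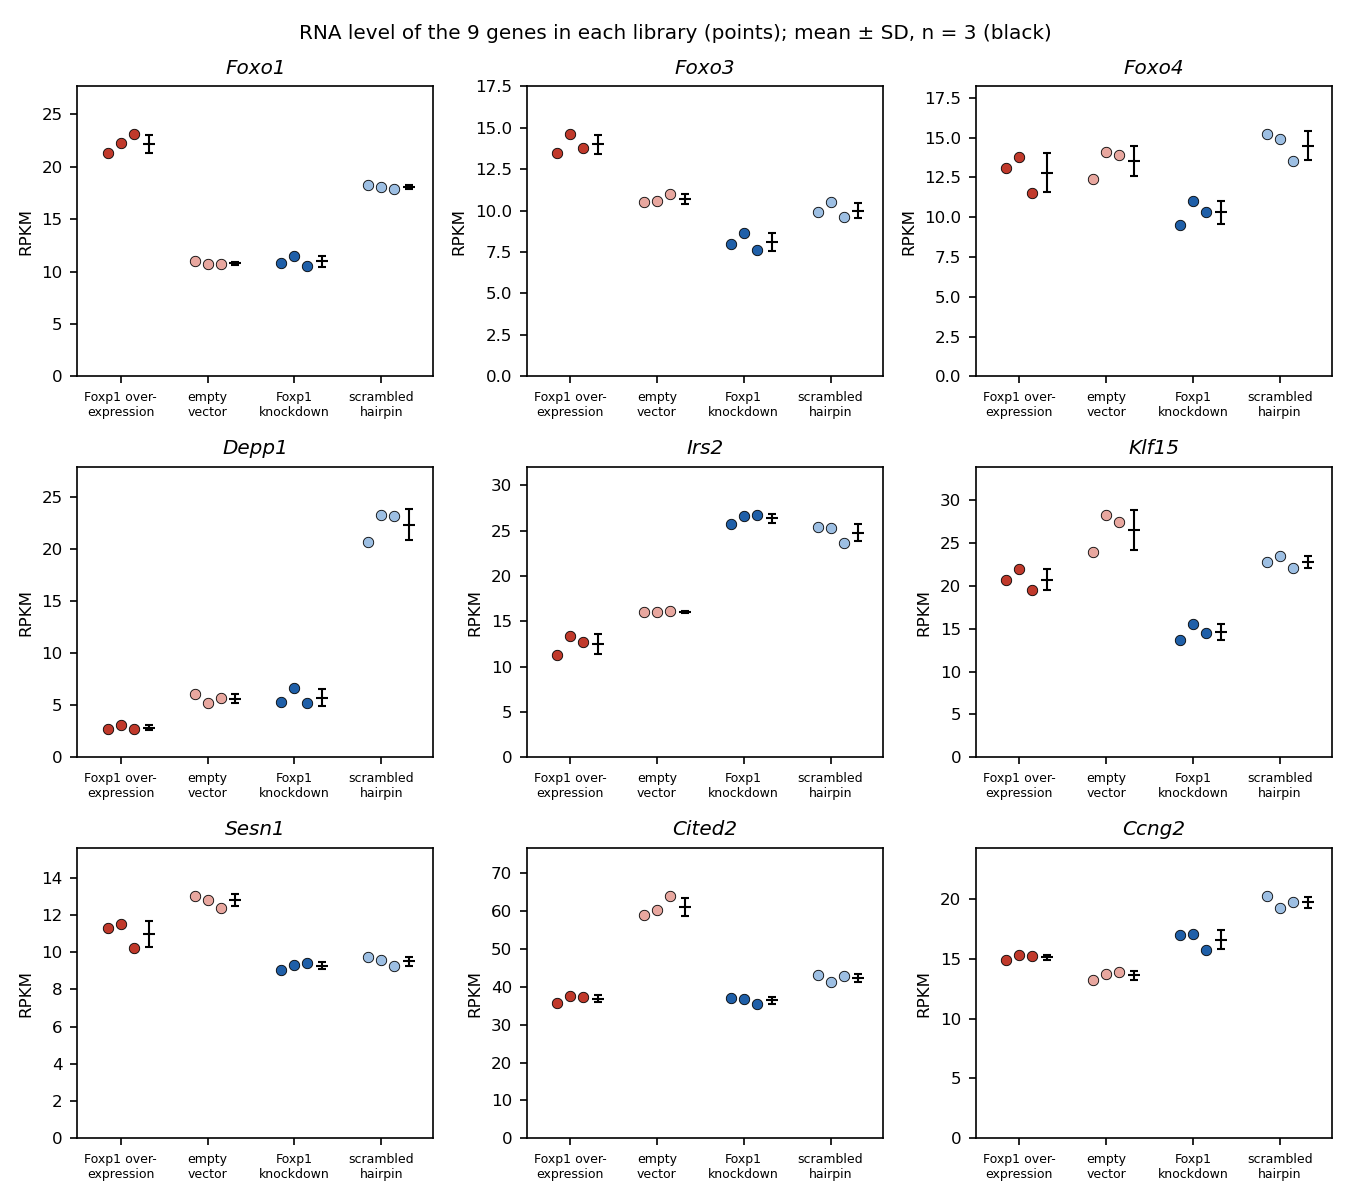
Level of each of the 9 genes in RPKM, 1 panel per gene, with 1 point per library and, in black, the mean and SD of each group (n = 3). Foxo1 is high with overexpression and the scrambled hairpin, and Depp1 stands at 20.6 to 23.2 RPKM with the scrambled hairpin against at most 6.69 RPKM in any other group.

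Counted over the 9 genes, 3 rose with overexpression (Foxo1, Foxo3 and Ccng2), 5 fell (Depp1, Irs2, Klf15, Sesn1 and Cited2) and Foxo4 did not pass. Of all genes tested, 51.4% were called in this comparison, 31.0% up and 20.3% down. This background split leans on scaling, since 3490 genes rose and 2285 fell as deposited but 2437 and 2580 with TPM. The groups did not overlap for 8 of the 9 genes and for 57.5% of all genes. The median log2 fold change was -0.20 over the 9 genes and 0.04 over all genes, and the median size was 0.344 and 0.15.

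With knockdown, 7 of the 9 genes fell and 0 rose, the other two being Irs2 and Sesn1. Of all genes, 49.7% were called, 18.7% up and 31.0% down. The all-gene counts were 2100 up and 3487 down as deposited, and 2856 and 2883 with voom on recovered reads. The groups did not overlap for 8 of the 9 genes and for 59.6% of all genes, with a median log2 fold change of -0.28 over the 9 and -0.04 over all. So many genes changed in these cells that a call by itself sets none of the 9 apart, and the sizes above carry the description.

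Taken across both comparisons, which share no library, the FoxO factors and their targets did not move as a block. Foxo1, Foxo3 and Ccng2 rose with overexpression and fell with knockdown, a pattern held by 12.1% of all genes tested. Depp1, Klf15 and Cited2 fell in both, a pattern held by 5.79%. No gene of the 9 fell with overexpression and rose with knockdown, which 6.0% of all genes did, and none rose in both, which 4.72% did. With voom, which also called the knockdown value of Irs2, Irs2 was an exception to the first of these. Foxo1 RNA and the RNA of 5 of its 6 listed targets therefore went in opposite directions with overexpression, where Foxo1 rose and Depp1, Irs2, Klf15, Sesn1 and Cited2 fell.

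The difference between the overexpression and knockdown responses was tested as an interaction. It was called for 9 of the 9 genes, 6 positive and 3 negative, against 54.9% of all genes, 34.6% positive and 20.3% negative. For all genes the split was 3888 positive and 2285 negative as deposited, and 3069 and 2989 with quantile normalization. It was largest for Foxo1, at 1.66 on the log2 scale (SE 0.056, limma adjusted p = 3.91e-10), followed by Depp1 at 1.01 (SE 0.116, limma adjusted p = 1.36e-05) and Foxo3 at 0.64 (SE 0.07, limma adjusted p = 9.78e-06). For Foxo1 and Foxo3 the responses had opposite signs, whereas for Depp1 both were negative and the knockdown response was the larger. Cited2 (-0.50, limma adjusted p = 9.01e-06) fell more with overexpression than with knockdown, while Irs2 (-0.43, limma adjusted p = 0.000334) fell with overexpression and was not called with knockdown. Foxo4 (0.39, limma adjusted p = 0.00644) and Ccng2 (0.38, limma adjusted p = 0.000101) had the lower fold change with knockdown, each against its own control.

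The differences of Klf15 (0.27, limma adjusted p = 0.0239) and Sesn1 (-0.16, limma adjusted p = 0.0417) were weak. That of Klf15 was lost without overexpression replicate 2 (0.0596), empty vector replicate 1 (0.0544), knockdown replicate 1 (0.06) or scrambled replicate 2 (0.0559). That of Sesn1 was lost without overexpression replicate 3 (0.0637), empty vector replicate 1 (0.0936) or 2 (0.0785), knockdown replicate 2 (0.0679) or 3 (0.0852), or scrambled replicate 2 (0.0642) or 3 (0.0939).

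**Figure D3:**
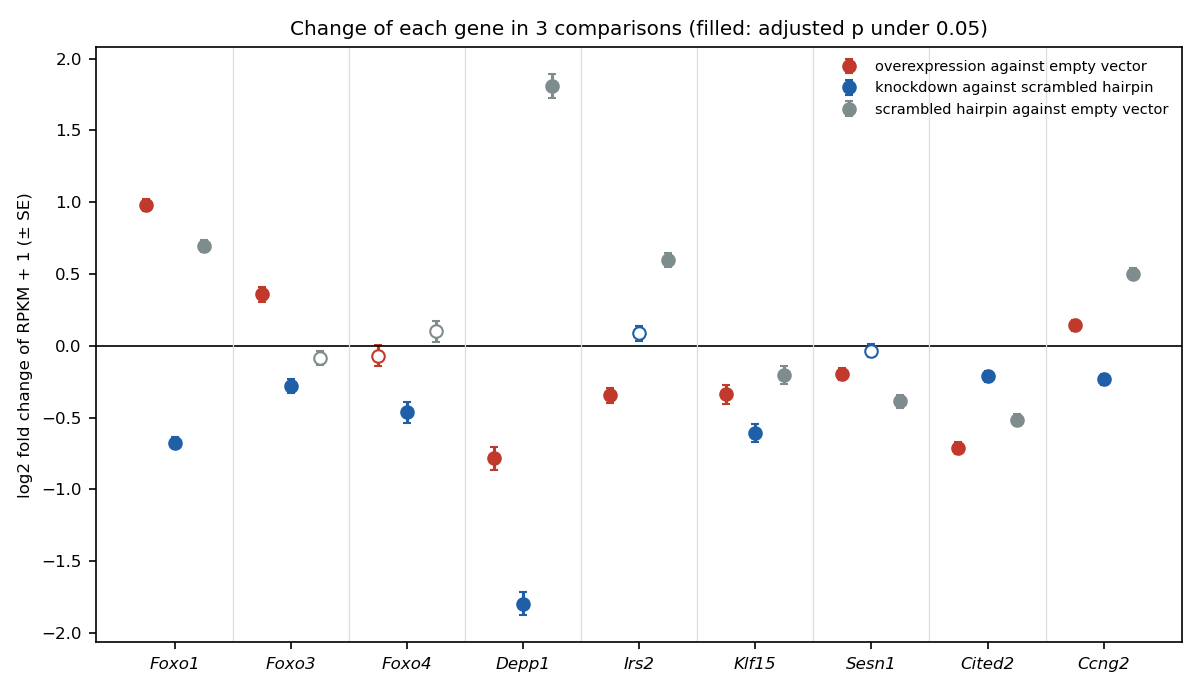
Log2 fold change of each of the 9 genes with its standard error, on the log2(RPKM + 1) scale, for each response to Foxp1 against its own control and for scrambled hairpin against empty vector. Filled points passed the adjusted p threshold of 0.05. Foxo1 is at 0.98 with overexpression and -0.68 with knockdown, while Depp1 is negative in both, at -0.79 and -1.80.

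The 2 control groups differed strongly in these genes. Scrambled hairpin against empty vector called 7 of the 9 genes, 4 higher (Foxo1, Depp1, Irs2 and Ccng2) and 3 lower (Klf15, Sesn1 and Cited2) in the scrambled group, against 71.8% of all genes, 44.8% higher and 27.0% lower. The all-gene counts were 5037 higher and 3033 lower as deposited, and 3974 and 4021 with voom on recovered reads. Depp1 averaged 22.3 ± 1.48 RPKM in the scrambled group and 5.64 ± 0.424 in the empty vector group (SD, n = 3 each), a ratio of 3.95 (log2 fold change 1.81, limma adjusted p = 1.6e-09). Foxo1 had a ratio of 1.68 (0.70, limma adjusted p = 1.17e-08), Irs2 of 1.55 (0.60, limma adjusted p = 4.92e-07) and Ccng2 of 1.45 (0.50, limma adjusted p = 1.81e-07). Cited2 was at 0.695 (-0.52, limma adjusted p = 1.32e-07), Sesn1 at 0.746 (-0.39, limma adjusted p = 5.21e-06) and Klf15 at 0.86 (-0.21, limma adjusted p = 0.0121). The Klf15 call ended with TPM (0.159) and without empty vector replicate 2 (0.058). Foxo3, not called here (-0.09, limma adjusted p = 0.138), was called lower with median-ratio scaling (0.0112), quantile normalization (0.00521), voom (0.00244) and scaling to reads outside the mitochondrial genome (0.0224). Foxo4 was not called (0.10, limma adjusted p = 0.228).

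This comparison shares its libraries with the other 2, and vector, hairpin and any difference in culture between the control groups cannot be told apart. For Irs2, Sesn1 and Ccng2, the controls differed by more than overexpression or knockdown differed from its own control. For Foxo1 and Depp1 they differed by about as much as knockdown did. For Cited2 they differed by more than knockdown did and by less than overexpression did. Levels are therefore read against each group's own control. The order of the 4 groups by mean differed from gene to gene. Foxo1 ran overexpression, scrambled hairpin, knockdown and empty vector from high to low, with the last 2 overlapping. Depp1 ran scrambled hairpin, knockdown, empty vector and overexpression, with knockdown and empty vector overlapping. Irs2 ran knockdown, scrambled hairpin, empty vector and overexpression, with no overlap between neighbours.

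Beyond the 9 genes, Foxo6 and the regulators of FoxO proteins were measured as a list of 18, of which, Foxo6 included, 10 rose and 2 fell with overexpression, and 3 rose and 4 fell with knockdown, where 51.4% and 49.7% of all genes were called. Sgk1, a kinase of the Akt family that also phosphorylates FoxO, had 50.8 ± 3.84 RPKM with overexpression and 22.4 ± 0.373 with the empty vector (SD, n = 3 each; log2 fold change 1.14, limma adjusted p = 1.84e-09). Pik3r1, the regulatory subunit of phosphoinositide 3-kinase, had 53.0 ± 2.43 and 26.3 ± 0.794 RPKM in the same groups (0.98, limma adjusted p = 1.38e-09). Sgk1 also rose with knockdown, at 16.7 ± 0.379 RPKM against 14.1 ± 0.474 with the scrambled hairpin (0.23, limma adjusted p = 0.00219). Irs1, the other main Irs adaptor, fell with overexpression, at 5.08 ± 0.246 RPKM against 7.98 ± 0.24 with the empty vector (-0.57, limma adjusted p = 1.23e-07). With knockdown Irs1 rose, at 5.18 ± 0.112 RPKM against 3.9 ± 0.0751 with the scrambled hairpin (0.34, limma adjusted p = 2.6e-05). Irs1 and Irs2 thus both fell with overexpression, by 0.57 and 0.34 on the log2 scale. The insulin receptor gene Insr fell with knockdown, at 8.85 ± 0.677 RPKM against 10.6 ± 0.223 with the scrambled hairpin (-0.24, limma adjusted p = 0.00298).

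Of 42 further textbook FoxO targets, 38 were tested, and Tnfsf10, G6pc, Igfbp1 and Trim63 were too low. With overexpression 13 rose and 17 fell, which is 78.9% called against 51.4% of all genes, with a median log2 fold change of -0.07. With knockdown 9 rose and 21 fell, with a median of -0.18, which is 78.9% called against 49.7% of all genes. Of the 38, 10 rose with overexpression and fell with knockdown, 5 did the reverse, 5 fell in both and 2 rose in both. Of all genes tested, 12.1%, 6.0%, 5.79% and 4.72% held these patterns, in the same order. In the list of growth arrest and cell death, 11 of the 13 tested genes fell with knockdown and 2 rose, where 31.0% of all genes fell and 18.7% rose (2883 and 2856 genes with voom). With overexpression 5 of the 13 rose and 4 fell, where 31.0% of all genes rose and 20.3% fell. The transcriptional repressor Bcl6 fell with knockdown, at 16.9 ± 1.48 RPKM against 24.9 ± 0.375 with the scrambled hairpin (SD, n = 3 each; -0.54, limma adjusted p = 1.7e-05). Mxi1, an antagonist of Myc, fell to 14.7 ± 1.03 RPKM with knockdown, against 20.8 ± 0.362 with the scrambled hairpin (-0.47, limma adjusted p = 5.24e-06). The cell cycle inhibitor Cdkn1b fell to 8.6 ± 0.482 RPKM with knockdown, against 11.6 ± 0.0609 (-0.39, limma adjusted p = 9.8e-06). With overexpression, Pik3ip1, an inhibitor of phosphoinositide 3-kinase, fell to 4.65 ± 0.382 RPKM, against 11.3 ± 0.492 with the empty vector (-1.13, limma adjusted p = 4.08e-09). Trp53inp1, a stress gene linked to autophagy, fell to 11.9 ± 0.288 RPKM, against 26.6 ± 0.623 (-1.10, limma adjusted p = 3.38e-09). Klf4 rose with overexpression to 8.79 ± 0.242 RPKM, against 5.35 ± 0.14 with the empty vector (0.625, limma adjusted p = 4.59e-07). Cdkn1a likewise rose, to 165.0 ± 21.6 RPKM against 109.0 ± 4.14 (0.579, limma adjusted p = 3.06e-05).

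In the list of stress defence, autophagy and protein breakdown, 9 of 14 tested genes fell with overexpression and 3 rose, where 20.3% of all genes fell and 31.0% rose. With knockdown 5 fell and 2 rose, a share near the 49.7% of all genes called. Catalase (Cat), which breaks down hydrogen peroxide and had the smallest adjusted p of the list in both responses, moved opposite to Foxo1. It fell with overexpression, with a log2 fold change of -1.15 (limma adjusted p = 1.84e-10), and rose with knockdown, at 171.0 ± 2.5 RPKM against 114.0 ± 4.66 with the scrambled hairpin (0.58, limma adjusted p = 3.37e-07). The autophagy receptor Sqstm1 likewise fell with overexpression (-0.52, limma adjusted p = 6.11e-07) and rose with knockdown (0.36, limma adjusted p = 2.98e-05). Gabarapl1, which builds autophagosomes, fell in both, at 110.0 ± 5.63 RPKM with overexpression against 236.0 ± 9.12 with the empty vector (-1.10, limma adjusted p = 1.11e-09) and at 118.0 ± 3.02 with knockdown against 147.0 ± 2.79 with the scrambled hairpin (-0.31, limma adjusted p = 0.00012). Pink1, a kinase of mitochondrial quality control, fell with overexpression, at 34.2 ± 2.28 RPKM against 59.8 ± 1.03 with the empty vector (-0.79, limma adjusted p = 4.8e-08). The autophagy kinase Ulk1 fell with knockdown, at 14.6 ± 1.3 RPKM against 20.8 ± 1.43 with the scrambled hairpin (-0.48, limma adjusted p = 4.98e-05). The ubiquitin ligase gene Fbxo32, picked after its values were seen, was called in the directions of Foxo1. It rose with overexpression, at 5.07 ± 0.268 RPKM against 3.23 ± 0.0295 with the empty vector (0.52, limma adjusted p = 2.69e-06), and fell with knockdown, at 1.16 ± 0.0697 RPKM against 1.75 ± 0.154 with the scrambled hairpin (-0.35, limma adjusted p = 0.000133).

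In the metabolic target list, 5 of 11 tested genes rose and 4 fell with overexpression, and 5 rose and 5 fell with knockdown, beside the shares of all genes given for the other lists. Pdk4, which slows the use of pyruvate in mitochondria, moved as Foxo1 did, with log2 fold changes of 1.15 with overexpression and -0.78 with knockdown. Adipoq, also among the fat cell markers, moved opposite to Foxo1. It fell with overexpression, at 438.0 ± 16.6 RPKM against 1948.2 ± 17.3 with the empty vector (-2.15, limma adjusted p = 6.85e-12). With knockdown it rose (0.64, limma adjusted p = 1.04e-06). Pck1 rose with overexpression (1.89, limma adjusted p = 5.15e-11), while Lpl fell (-0.74, limma adjusted p = 4.8e-08). Cpt1a, the entry enzyme of fatty acid oxidation, rose in both, at 7.39 ± 0.446 RPKM with overexpression against 5.28 ± 0.214 with the empty vector (0.42, limma adjusted p = 9.17e-06) and at 3.26 ± 0.0704 with knockdown against 1.73 ± 0.0842 with the scrambled hairpin (0.64, limma adjusted p = 7.16e-07). Angptl4, an inhibitor of lipoprotein lipase, rose with knockdown, at 94.6 ± 4.69 RPKM against 54.2 ± 2.73 (0.79, limma adjusted p = 9.06e-06). Its value with overexpression did not pass (0.15, limma adjusted p = 0.146) but did without overexpression replicate 3 (0.0015).

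Of 12 genes that insulin raises, 6 rose and 3 fell with overexpression, and 5 rose and 3 fell with knockdown. Of all genes tested, 31.0% rose and 20.3% fell with overexpression, and 18.7% rose and 31.0% fell with knockdown. The smallest adjusted p of the list was that of Pfkfb3 with overexpression, where it fell (-1.08, limma adjusted p = 2.39e-09). With knockdown it was that of Ccnd1, which rose (1.31, limma adjusted p = 2.01e-07). Myc rose in both, at 35.3 ± 1.08 RPKM with overexpression against 20.6 ± 0.855 with the empty vector and at 35.7 ± 1.25 with knockdown against 26.0 ± 0.576 with the scrambled hairpin. Insig1, a brake on sterol synthesis, fell in both, by 0.75 and by 0.35 on the log2 scale.

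**Figure D4:**
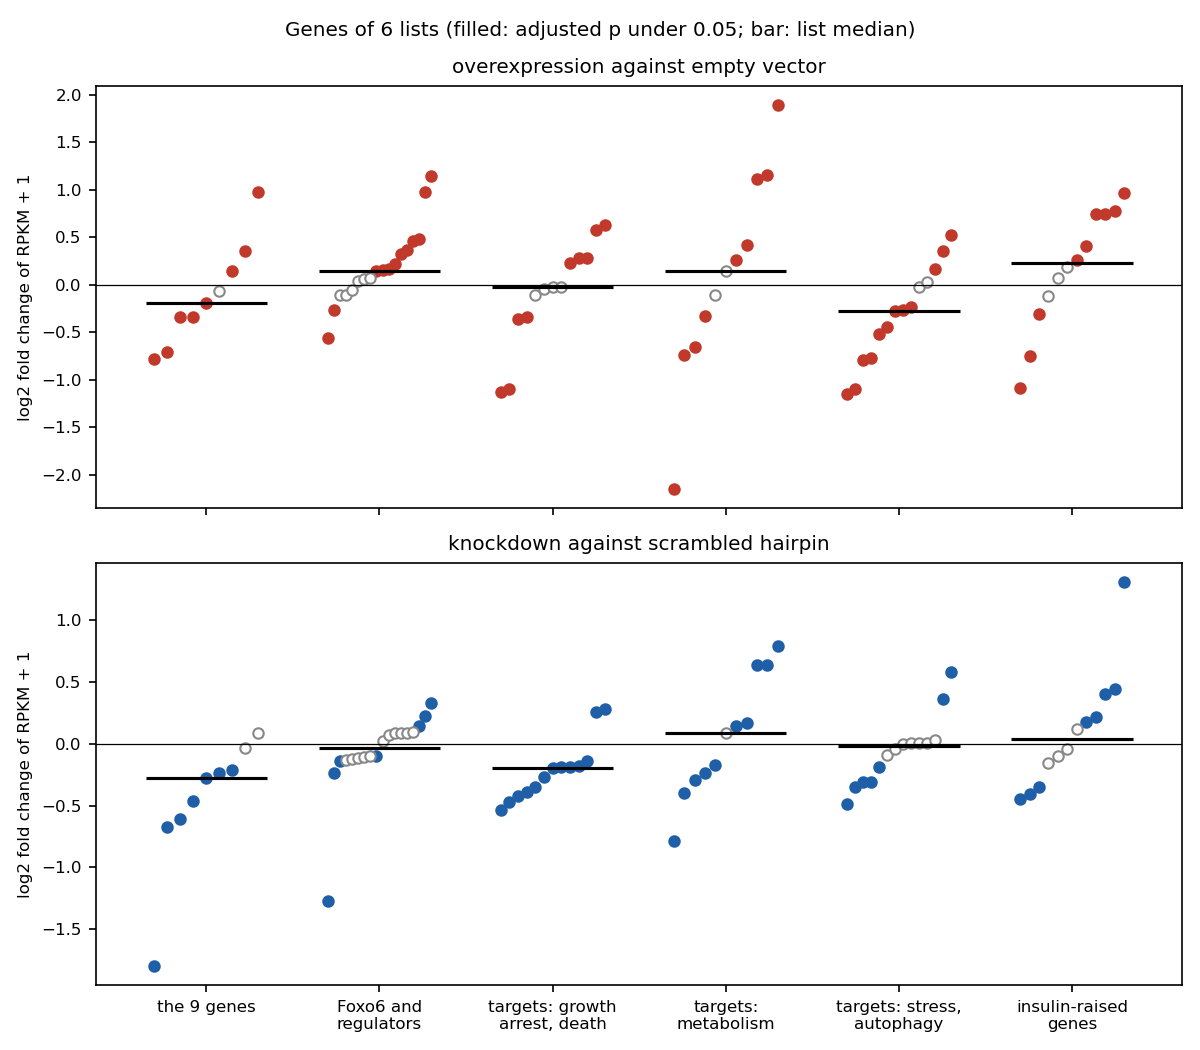
Log2 fold change of every tested gene (points, on the log2(RPKM + 1) scale) in the 9 genes, the FoxO regulators, the 3 target lists and the insulin-raised genes, for overexpression (upper panel) and knockdown (lower panel), each against its own control. Filled points passed the adjusted p threshold of 0.05 and bars mark list medians; 11 of 13 growth arrest and death targets fall with knockdown, and 9 of 14 stress and autophagy targets fall with overexpression.

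Among the 6651 genes with a mean of at least 5 RPKM, those whose levels followed Foxo1 most closely over the 12 libraries were Ggta1, Cox7a1 and Nek7, with Pearson r of 0.981, 0.98 and 0.978 on log2(RPKM + 1). The 12 points are 4 groups of 3, so that these values mostly describe 4 group means. Cox7a1, a subunit of cytochrome oxidase, averaged 46.1 RPKM with overexpression and 19.6 with the empty vector, and 19.0 with knockdown and 33.4 with the scrambled hairpin. Ggta1, a galactosyltransferase, averaged 12.2 and 4.22 RPKM in the first pair of groups and 3.65 and 7.64 in the second. Of the other 8 genes, Foxo3 was closest to Foxo1, at 0.727, followed by Foxo4 (0.41), Ccng2 (0.343), Klf15 (0.161) and Depp1 (0.035). The values of Sesn1 (-0.153), Irs2 (-0.412) and Cited2 (-0.474) were negative, although Cited2, like Foxo1, fell with knockdown. All these values also take in the difference between the 2 control groups.

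The exons of Foxo1 share 674 of 8665 bases with Gm20402 and those of Irs2 share 162 of 6323 bases with 9530052E02Rik, each on the other strand. Both partners were at or under 0.144 RPKM, and whether reads were counted by strand is not given in the sources used here.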

How the data were processed

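RNA was measured in 12 libraries. The authors deposited RPKM per gene and library, divided by 1000, which was undone here. The submitters' processing notes name mm10, featureCounts (Subread 1.5.3) and HISAT2 2.1.0; their settings, including strand and reads matching several places, are not given in the sources used here. Symbols and positions came from GENCODE M21 (GRCm38), which matched 28896 of 28948 identifiers. Reads per library were recovered from the values (98.83% to 98.93% whole within 0.05 of a read, 1 read per kilobase worth 0.026 to 0.0284 RPKM) and used for depth and voom only.

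Genes reaching 1 RPKM in 3 or more libraries were tested as log2(RPKM + 1) in a single model of 4 groups with limma 3.58.1 (R 4.3.3; variance trend; Benjamini-Hochberg adjusted p under 0.05; two-sided). Simulated data, drawn from the empty vector levels with far fewer changed genes than were called here, were also put through the fit. No result rests on them. The 9 genes and the lists were chosen with earlier results of these data known. Named list genes were the 4 with the smallest adjusted p per list and comparison, and not all are given; Foxo6, Angptl4 and Cpt1a with overexpression, and Fbxo32 in each response were added after their values were seen. Alternatives changed the pseudocount, filter, scaling, variance model, libraries and replicate block; scaling to reads outside the mitochondrial genome was added after seeing the data. The voom alternative used median-ratio library sizes. Replicate numbers did not pair the libraries. Tables and figures used Python 3.11.15, pandas 2.3.3, numpy 2.4.6 and matplotlib 3.10.9.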

Additional observations from a re-analysis of the deposited data

How the results depend on the processing

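None of the fold changes of the 9 genes changed direction while called, under any alternative run. The number of the 9 genes called was 7 to 8 with overexpression, 7 to 8 with knockdown, 7 to 9 for the difference of responses and 6 to 8 between the controls. The total of all genes called in each comparison stayed within 1.5 times that reported. By direction, the filter of 5 RPKM, which leaves 7181 genes, gave 2582 positive differences of response and 2013 genes lower in the scrambled group than with the empty vector. Besides the calls named in the report, Klf15 in the difference of responses was lost with no filter on low values (limma adjusted p = 0.0638), TPM (0.0715), median-ratio scaling (0.0698) and voom (0.0609), and Sesn1 with no filter (0.0673) and TPM (0.0905). Whether a gene near the threshold is called thus depends on scaling; the cause was not tested. Without overexpression replicate 3, 8 of the 9 genes were called with overexpression. Restricting the fit to the libraries compared was not run for the difference of responses, which needs all 4 groups.

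Same-numbered libraries did not deviate together (correlations of -0.013, 0.118 and 0.081 between overexpression and empty vector, and of -0.073, 0.049 and -0.059 between knockdown and scrambled hairpin). With the replicate number as a block, 8 of the 9 genes were called with overexpression, 7 with knockdown, 9 for the difference and 7 between controls, and 5888, 5709, 6328 and 8164 of all genes, with no call of the 9 genes changed. Groups of 3 are too small for a test of single outlying libraries. The lowest of the 9 genes, Depp1, had as few as 135 reads in a library, so that small differences in it are less certain than in Foxo1.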
